A study of Mus musculus with 2 samples.

Results

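The activator protein 1 (AP-1) transcription factor genes Jun, Junb, Jund, Fos, Fosb, Fosl2 and Atf3 were followed in regulatory T cells (Tregs) from mouse spleen. They were taken by symbol from the 32285 genes listed in both deposited tables, and all 7 were found. AP-1 factors are dimers of basic leucine zipper proteins. A Jun protein pairs with itself, with a Fos protein or with an ATF protein, and a Fos protein needs a Jun partner. The dimers bind short DNA elements beside genes of activation and growth. In T cells, Fos, Jun and Fosb are immediate early genes that antigen receptor signals switch on through the ERK and JNK kinases, and AP-1 dimers bind composite sites together with NFAT. Junb and Jund are also made in cells that were not freshly stimulated, and BATF-JunB dimers take part in the programme of effector Tregs.

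Splenic Tregs were sorted as live CD4 cells carrying GFP and tdTomato, and single-cell 3' RNA libraries were built on the 10x Chromium platform. The CD25KO mice carried the genotype CD25FL/FL-tdTomato+/+-Foxp3eGFPCretERT2+/+, and their cells were additionally gated on low CD25 (encoded by Il2ra), which is the high-affinity subunit of the receptor for interleukin-2. The CD25WT mice were CD25WT/WT-tdTomato+/+-Foxp3eGFPCretERT2+/+. Both groups therefore carried the tdTomato reporter and a tamoxifen-dependent Cre made from the Foxp3 locus, so that recombination was limited to cells with an active Foxp3 locus. Both received tamoxifen intraperitoneally at 2 mg/kg for 5 days with harvest on day 10, and 2 spleens were pooled into the 1 library of each group. The labels used here give no ages. A single library per group leaves no replicates, so nothing was tested between groups, and each interval below is a 95% interval for counting error only. The gate on low CD25, the genotype and the library cannot be told apart.

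The CD25KO table held 7530 barcodes with 36986849 unique molecular identifiers (UMIs), and the CD25WT table held 6620 barcodes with 36971834 UMIs. A cell needed 500 or more detected genes and no more than 10% of UMIs from mitochondrial genes, and clusters of other lineages were set aside. This left 6860 CD25KO and 6009 CD25WT T cells, with medians of 4152 and 5240 UMIs per cell. Ribosomal protein genes took 31.1% of the UMIs in CD25KO and 39.5% in CD25WT. Foxp3 had a UMI in 10% of CD25KO and 16.0% of CD25WT T cells, and Ikzf2, a Treg transcription factor, in 86.1% and 68.7%. Il2ra had a UMI in 825 CD25KO and 2104 CD25WT T cells. The labels do not say which part of Il2ra is removed, so these 3' UMIs may not check the deletion. The libraries shared 107 barcodes, 20 of them among the T cells.

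Promoter sequences are shown for Jun and Junb, the members that differed most clearly between the libraries and in opposite directions, and for Fos, the immediate early partner of Jun. Each run holds the 250 bases before the RefSeq start of the gene, 5′ to 3′ on the gene's strand, in build GRCm38.p6. The Jun run lies at chr4:95052223-95052472 on the minus strand, the Junb run at chr8:84978749-84978998 on the minus strand, and the Fos run at chr12:85473640-85473889 on the plus strand. Capitals mark the matches found by a search of both strands.
Jun: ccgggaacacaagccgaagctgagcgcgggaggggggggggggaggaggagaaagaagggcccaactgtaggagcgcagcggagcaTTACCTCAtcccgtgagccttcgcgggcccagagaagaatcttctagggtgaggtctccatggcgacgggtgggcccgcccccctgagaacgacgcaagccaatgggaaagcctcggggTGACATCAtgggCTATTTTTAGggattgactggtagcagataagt
Junb: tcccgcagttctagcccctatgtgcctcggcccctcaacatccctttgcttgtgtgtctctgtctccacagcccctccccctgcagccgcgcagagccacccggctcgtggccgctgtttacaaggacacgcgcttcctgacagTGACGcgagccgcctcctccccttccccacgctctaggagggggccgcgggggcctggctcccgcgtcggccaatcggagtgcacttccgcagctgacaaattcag
Fos: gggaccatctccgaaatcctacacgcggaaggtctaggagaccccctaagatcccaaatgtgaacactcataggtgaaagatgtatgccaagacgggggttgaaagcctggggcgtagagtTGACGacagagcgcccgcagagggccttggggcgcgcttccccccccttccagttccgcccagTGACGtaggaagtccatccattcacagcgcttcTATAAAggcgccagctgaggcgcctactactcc
The search covered the cyclic AMP response element (TGACGTCA) and, overlapping it, the core of that element (TGACG). It also covered the consensus AP-1 site, spelled TGAGTCA. TGACATCA and TTACCTCA were added as the letters described for the human JUN promoter as sites of Jun and ATF dimers, together with a MEF2 site of the kind known from the same promoter. A STAT5 site was spelled TTCNNNGAA, the CArG box bound by SRF was searched by its usual pattern, and a TATA box was taken as TATAAA.

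The Jun run held TTACCTCA at bases -164 to -157 from the start, TGACATCA at -45 to -38 and the MEF2 site at -33 to -24. Among 32817 mouse promoter runs of the same length, 0.728% held TTACCTCA, 2.93% held TGACATCA and 0.104% held the MEF2 site on either strand. Jun was the only one of the 6 members read with any of these. The Junb run held a single TGACG at -106 to -102. The Fos run held TGACG at -129 to -125 and at -66 to -62, and TATAAA, found in 12.4% of all promoters, at -33 to -28. Fosb held TGACG at -60 to -56 and Atf3 held it on the minus strand at -7 to -3, against 17.7% of all promoters. TGACGTCA, TGAGTCA, TTCNNNGAA and the CArG box matched in none of the 6 windows, and they were found in 1.55%, 4.46%, 7.01% and 1.47% of all promoters. The RefSeq window of Jund lies upstream of the annotated start used here and was not read for sites. The windows of Atf3 (chr1:191183334-191183583) and Fosl2 (chr5:32136222-32136471) lie inside the annotated genes, downstream of the annotated starts, and were read all the same.

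Jun, the founding member and the strongest activator of the Jun family, was lower in CD25KO. In all T cells it had 473 UMIs in CD25KO and 1550 in CD25WT, which is 13.4 (12.2 to 14.7) and 44.5 (42.3 to 46.8) counts per 1000000 UMIs (CPM). On the log2 scale, CD25KO over CD25WT gave a ratio of -1.73 (-1.88 to -1.58). The single-exon gene lies at chr4:95049034-95052222 on the minus strand (GENCODE release M21, the same build). A Jun UMI was seen in 4.78% of CD25KO and 17.0% of CD25WT cells, and cells with any held 1.44 and 1.52 UMIs on average. At such low counts, fewer cells with Jun and less Jun per cell cannot be told apart. With every cell thinned to 2000 UMIs, which left out 357 CD25KO and 67 CD25WT cells, the shares were 2.57% and 7.49%. No cell type in the tables is known to lack Jun. For comparison, a Jun UMI was seen in 0 of 18 CD25KO erythroid-like cells, which allows a share of up to 16.7%, and in 3 of 30 in CD25WT. Their median depths were 7752 UMIs in CD25KO and 8108 in CD25WT.

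Junb, which binds the same sites and is a weaker activator than Jun, stood in the opposite direction. It had 10098 UMIs in CD25KO and 6241 in CD25WT, or 287 (281 to 292) and 179 (175 to 184) CPM, with a log2 ratio of 0.68 (0.63 to 0.72). A Junb UMI was seen in 59.0% of CD25KO and 51.4% of CD25WT cells, and in 38.6% and 27.7% after thinning. Erythroid-like cells had one in 27.8% in CD25KO and 33.3% in CD25WT. Cells with any Junb held 2.50 UMIs on average in CD25KO and 2.02 in CD25WT. The 524 CD25KO cells with 5 or more Junb UMIs carried 37.3% of all Junb UMIs, and the 207 such CD25WT cells carried 22.2%. Junb lies at chr8:84974484-84978718 on the minus strand.

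Jund, which is made in many resting cell types, differed least of the Jun genes. It had 572 (564 to 580) CPM in CD25KO and 446 (439 to 453) CPM in CD25WT, a log2 ratio of 0.36 (0.33 to 0.39). A Jund UMI was seen in 79.8% of CD25KO and 82.1% of CD25WT cells, and in 60.7% and 54.9% after thinning. In erythroid-like cells it was seen in 83.3% in CD25KO and 63.3% in CD25WT, so the T cell share is not above theirs in CD25KO. Jund lies at chr8:70698949-70700616 on the plus strand. By UMIs, Jund made up 65.6% of the Jun family in CD25KO and 66.6% in CD25WT, Junb 32.9% and 26.8%, and Jun 1.54% and 6.64%. These levels are 3' UMIs, which are not scaled by gene length.

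Of the 7126 genes averaging 10 CPM or more over the libraries, 10.6% stood 1.5-fold or more above CD25WT in CD25KO and 1.49% stood 1.5-fold or more below. At 2-fold, 3.65% were higher and 0.575% lower. The median log2 ratio of all these genes was 0.21. Only 4 of the 7 AP-1 genes reached 10 CPM, namely Jun, Junb, Jund and Fos. With TMM factors the split was 399 higher and 250 lower, against 752 and 106 without them. Junb was the 1 of these 4 past 1.5-fold higher, with 581 of the 7126 genes above it. It was no longer past 1.5-fold with TMM factors (0.44), with median-of-ratios factors (0.47) or without ribosomal protein and mitochondrial genes in the total (0.48). Jun was the 1 past 1.5-fold lower, also past 2-fold, and 7 genes had a lower ratio. Fosb, Fosl2 and Atf3 were under the minimum and are given by their own counts.

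**Figure D1:**
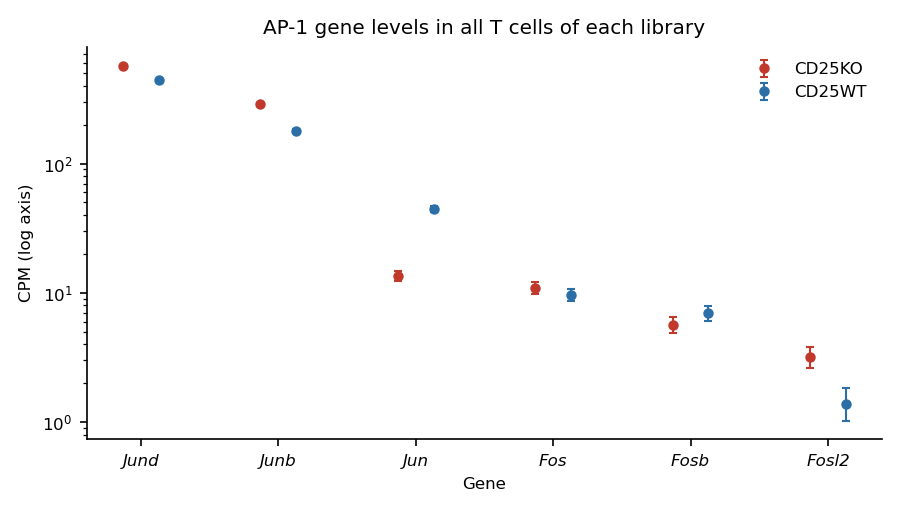
Level of 6 AP-1 genes in CPM (log axis) summed over the T cells of each library, CD25KO left of CD25WT, with 95% counting intervals (those of Jund and Junb are smaller than the points). Jund and Junb were the most abundant in both libraries, and Jun stood at 13.4 CPM in CD25KO against 44.5 CPM in CD25WT. Atf3, with 2 and 1 UMIs, is not drawn.

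Reads of neighbouring genes could enter these counts, since neither labels nor headers say whether strand was used in counting. The 3' ends of Junb and Prdx2, a peroxiredoxin gene on the opposite strand, overlap by 351 bases. Prdx2 had 222 CPM in CD25KO and 169 CPM in CD25WT, a log2 ratio of 0.39. The antisense gene Junos overlaps Jun by 689 bases and had 6 UMIs in CD25KO and 23 in CD25WT. The antisense gene Gm11175 lies over Jund and had 26 UMIs in each library. Prdx2 thus stood at a level close to that of Junb, and its part in the Junb values was not tested.

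The Fos genes were far less abundant than Junb and Jund. Fos, at chr12:85473890-85477273 on the plus strand, had 385 UMIs in CD25KO and 338 in CD25WT. These are 10.9 (9.86 to 12.1) and 9.70 (8.69 to 10.8) CPM, with a log2 ratio of 0.17 (-0.04 to 0.39) that was below 0 with TMM factors (-0.06), with median-of-ratios factors (-0.04) and without ribosomal protein and mitochondrial genes in the total (-0.02). A Fos UMI was seen in 2.78% of CD25KO and 3.96% of CD25WT cells, so the share and the CPM ran in opposite directions and no order is read from them. Among erythroid-like cells 2 of 18 in CD25KO had a Fos UMI, as did 0 of 30 in CD25WT, which allows up to 10%. The shares of all T cells are not above these values, so Fos is read by state, where its shares differ.

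The Fos UMIs of CD25KO were held by fewer cells with more UMIs each. Cells with any Fos held 2.02 UMIs on average in CD25KO and 1.42 in CD25WT. In CD25KO, 15 cells with 5 or more Fos UMIs carried 162 of the 385 UMIs (42.1%), and the highest cell had 42. In CD25WT, 4 such cells carried 44 of the 338 UMIs (13.0%), and the highest had 19. Of the 15 CD25KO cells, 6 were follicular regulatory-like, 5 recently stimulated-like, 2 cycling-like and 2 in unnamed clusters, while all 4 CD25WT cells were recently stimulated-like. The Fos level of CD25KO thus rested in large part on 15 of 6860 cells.

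Fosb, an immediate early Fos gene at chr7:19302696-19310051 on the minus strand, had 200 UMIs in CD25KO and 242 in CD25WT. This is 5.68 (4.92 to 6.52) and 6.94 (6.10 to 7.88) CPM, with a log2 ratio of -0.29 (-0.57 to -0.01). The direction turned with a stricter cell filter of at least 1000 genes and at most 5% mitochondrial UMIs (0.13). Fosl2, which encodes Fra-2 and is the slower member of the family, lies at chr5:32135801-32157842 on the plus strand. It had 112 UMIs in CD25KO and 48 in CD25WT, or 3.18 (2.62 to 3.82) and 1.38 (1.02 to 1.83) CPM, with a log2 ratio of 1.21 (0.71 to 1.73). Of the 3 Fos genes' UMIs, Fosl2 took 16.1% (13.4 to 19.0) in CD25KO and 7.64% (5.69 to 10.0) in CD25WT, Fosb took 28.7% (25.4 to 32.2) and 38.5% (34.7 to 42.5), and Fos 55.2% and 53.8%. The intervals of the libraries were apart for Fosl2 and Fosb.

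Atf3, a stress-induced ATF factor that pairs with Jun proteins, was close to undetected. It lies at chr1:191170296-191218039 on the minus strand and had 2 UMIs among CD25KO T cells and 1 among CD25WT T cells. Both sums are at or under 3 counts, so no fold is given. Its shares of T cells, 0.0292% and 0.0166%, were below the 4.35% of CD25KO B-like cells (2 of 46) and the 6.67% of CD25WT B-like cells (3 of 45). A difference in Atf3 was not detectable at this depth.

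Treg states were made by clustering the cells of both libraries together without the 7 AP-1 genes and naming each cluster from marker genes. Central-like cells (Igfbp4, Satb1 and Lef1 among the leading genes) made up 7.23% of CD25KO and 50.7% of CD25WT T cells. Effector-like cells (S100a4, Itgb1, Ccl5, Klrg1) made up 32.9% and 11.4%. Follicular regulatory-like cells (Sostdc1, Tox2, Cxcr5, Bcl6) made up 16.8% and 5.49%, and recently stimulated-like cells (Egr3, Egr2, Nr4a1, Cd83), which carry the mark of antigen receptor signalling, 12.2% and 7.72%. Interferon response-like cells (Ifit3, Ifit1, Isg15) made up 6.27% and 4.98%, cycling-like cells (Top2a, Birc5, Mki67) 3.37% and 1.48%, and cells of unnamed clusters 21.2% and 18.2%. The 89 CD25WT cycling-like cells were fewer than the 100 set for a comparison, so 6 states were compared. Doublets were not removed, and cells of the cycling-like cluster had 14391 and 15479 UMIs at the median.

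Jun was lower in CD25KO in each of the 6 states, with every counting interval below 0. Of the 7126 genes, 4.7% had a ratio below 0 in all 6 states. In effector-like cells, 70 UMIs in CD25KO and 109 in CD25WT gave 6.21 and 30.3 CPM, a log2 ratio of -2.29 (-2.74 to -1.84). In follicular regulatory-like cells, 53 and 52 UMIs gave 9.05 CPM in CD25KO and 31.2 CPM in CD25WT, a ratio of -1.79 (-2.37 to -1.21). These were the largest gaps with this clustering. Central-like cells had 44 UMIs and 20.8 CPM in CD25KO against 783 UMIs and 44.8 CPM in CD25WT, a ratio of -1.11 (-1.58 to -0.67). The unnamed clusters together had 141 and 366 UMIs, or 25.2 and 63.5 CPM, a ratio of -1.33 (-1.62 to -1.05). The smallest gaps with this clustering were in interferon response-like cells, with 35.1 and 66.4 CPM and -0.92 (-1.37 to -0.48), and in recently stimulated-like cells, with 16.9 and 29.6 CPM and -0.81 (-1.26 to -0.37). The differences between states were not tested. The median ratio of all genes ran from -0.01 to 0.12 over the states.

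The size of the Jun ratio depended on how states were made, and the cells under a name changed too. At Leiden resolution 0.5 the follicular regulatory-like cluster held 1762 CD25KO and 559 CD25WT cells, with Cd83 and Egr2 among its leading genes. The recently stimulated-like cluster there was led by Srm, Nr4a1 and Egr3. Cycling genes were among the leading genes of a cluster named erythroid-like, which was left out. In recently stimulated-like cells the Jun ratio was -0.35 (-0.94 to 0.26) at resolution 1.5 and -1.39 at resolution 0.5. With states defined instead by the top 10% of marker UMIs, the ratio was -0.24 (-0.86 to 0.33) in central-like, -3.69 in effector-like, -1.32 in recently stimulated-like and -2.08 in interferon response-like cells. With the AP-1 genes among the clustering features, interferon response-like cells stood at -1.72, and at resolution 0.5 at -1.53. Follicular regulatory-like cells stood at -1.34 at resolution 0.5, -1.70 with the AP-1 genes in and -1.51 with marker UMIs, so their place in the order also changed. The direction of Jun did not turn in these. Cycling-like cells had 16 and 30 Jun UMIs, 4.39 CPM in CD25KO and 21.3 CPM in CD25WT.

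The order of Jun levels over states was similar at its ends in both libraries. In CD25KO, Jun was highest in interferon response-like cells, followed by the unnamed, central-like and recently stimulated-like cells, whose neighbouring intervals overlapped. A gap followed, with follicular regulatory-like, effector-like and cycling-like cells overlapping among themselves. In CD25WT, interferon response-like and unnamed cells overlapped at the top. Central-like cells came next without overlap on either side. Follicular regulatory-like, effector-like and recently stimulated-like cells overlapped, with cycling-like cells lowest.

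Junb was higher in CD25KO in each of the 6 states, as were 14.2% of the 7126 genes. It was highest in recently stimulated-like cells in both libraries, with 2551 UMIs in CD25KO and 992 in CD25WT, or 531 (511 to 552) and 312 (293 to 332) CPM. The log2 ratio there, 0.77 (0.66 to 0.88), was the largest of the 6 states with this clustering. Interferon response-like cells had 192 CPM in CD25KO and 132 CPM in CD25WT, a ratio of 0.54 (0.30 to 0.78). The other states had lower ratios. Effector-like cells had 291 and 224 CPM with 0.38 (0.27 to 0.49), and the unnamed clusters 256 and 194 CPM with 0.40 (0.29 to 0.52). Follicular regulatory-like cells had 259 and 214 CPM with 0.27 (0.10 to 0.44). Central-like cells had 171 CPM in CD25KO and 148 CPM in CD25WT, a ratio of 0.21 (0.05 to 0.37). Less the median of all genes in that state, the central-like ratio was 0.13 (-0.03 to 0.29), so its interval held 0. In the other 5 states the interval less the state's median stayed above 0. Cycling-like cells had 161 and 110 CPM. With states from marker UMIs the interval also held 0 in effector-like cells, at 0.13 (-0.13 to 0.41), and in central-like cells, at 0.18 (-0.10 to 0.46). At resolution 1.5 it held 0 in central-like cells, at 0.14 (-0.03 to 0.30), and the ratio was 0.50 in recently stimulated-like cells and 0.58 in interferon response-like cells, so that the order turned.

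**Figure D2:**
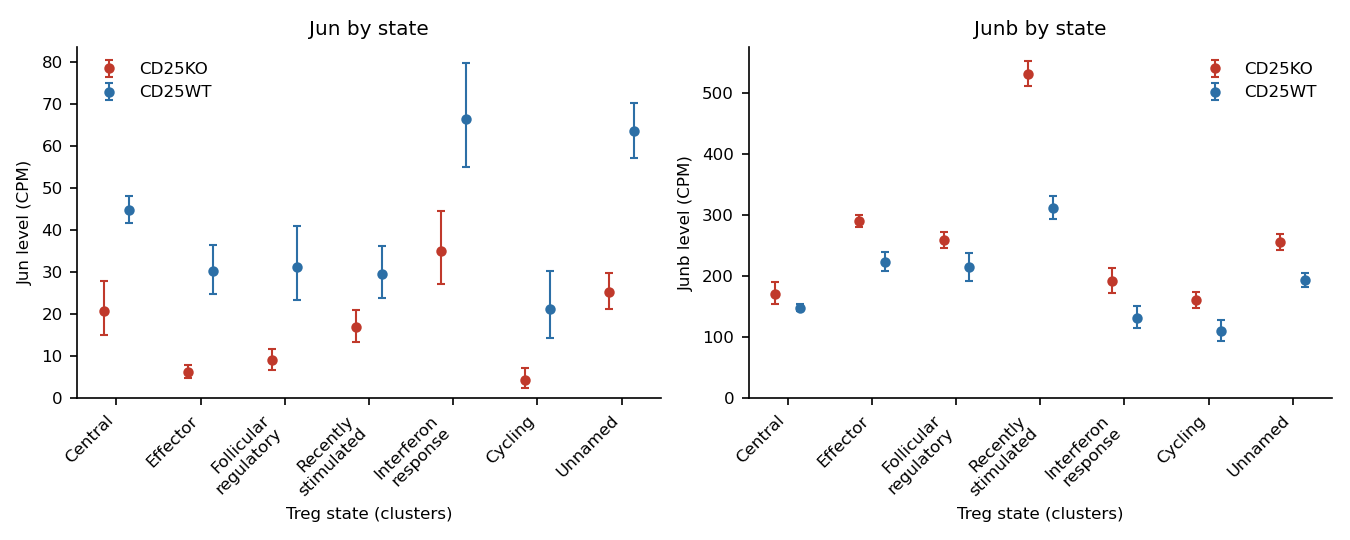
Jun (left panel) and Junb (right panel) in CPM by state, CD25KO left of CD25WT, as points with 95% counting intervals. Jun was lower in CD25KO in every state drawn and Junb was higher, with the top Junb values of 531 CPM in CD25KO and 312 CPM in CD25WT in recently stimulated-like cells.

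The balance of Jun against Junb within the same cells does not depend on the scaling of the libraries. All T cells had 4.68 (4.26 to 5.14) Jun UMIs per 100 Junb UMIs in CD25KO and 24.8 (23.5 to 26.3) in CD25WT. The count was lower in CD25KO in every state. It was 2.13 (1.66 to 2.70) in CD25KO and 13.5 (10.97 to 16.5) in CD25WT effector-like cells, and 3.496 and 14.6 in follicular regulatory-like cells. Recently stimulated-like cells had 3.18 in CD25KO and 9.48 in CD25WT, and central-like cells 12.2 and 30.3. Interferon response-like cells were highest in both libraries, with 18.3 (13.9 to 23.7) in CD25KO and 50.2 (39.8 to 63.0) in CD25WT. The intervals of CD25KO and CD25WT did not overlap in any of these states.

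The states held unequal shares of each library, and part of the gap over all T cells went with them. With each state weighted by its share of CD25WT cells, the log2 ratio was -1.22 for Jun and 0.38 for Junb. With clusters weighted in place of states, an alternative chosen after seeing the data, it was -1.03 and 0.33. Fos turned to -0.50 with state weights, from an interval that already held 0, and Fosl2 stood at 0.46. In bulk sums such as these, fewer cells of a state and less RNA per cell cannot be told apart without such a split.

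Jund differed little within states. Its log2 ratio was 0.30 (0.21 to 0.38) in recently stimulated-like cells, where it had 654 and 533 CPM, and 0.29 (0.22 to 0.36) in effector-like cells, where it had 689 CPM in CD25KO and 565 CPM in CD25WT. In central-like cells it was 0.17 (0.07 to 0.26), with 469 and 417 CPM. In the other 3 states the interval held 0, with 0.02 in interferon response-like cells, -0.03 in the unnamed clusters and -0.07 (-0.17 to 0.03) in follicular regulatory-like cells, where it had 580 CPM in CD25KO and 609 CPM in CD25WT. Jund was highest in effector-like cells of CD25KO and in follicular regulatory-like cells of CD25WT, and lowest in interferon response-like cells of both, with 360 and 355 CPM. Less the median of all genes in central-like cells, the Jund ratio there was 0.09 (-0.007 to 0.19), so its interval held 0.

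In CPM, Fos was highest in recently stimulated-like cells, the state in which early genes were the naming markers but no AP-1 gene was. There it had 139 UMIs in CD25KO and 86 in CD25WT, or 28.9 (24.3 to 34.2) and 27.0 (21.6 to 33.4) CPM, a log2 ratio of 0.10 (-0.30 to 0.50). Cells with 5 or more Fos UMIs held much of this, with 74 of the 139 UMIs in 5 CD25KO cells and 44 of the 86 in 4 CD25WT cells. By cells, 6.80% of CD25KO and 7.97% of CD25WT recently stimulated-like cells had a Fos UMI, against 0.465% and 2.34% of interferon response-like cells. The shares in CD25KO differed between these states beyond their counting intervals, at median depths of 4819 and 4078.5 UMIs. In CD25WT the recently stimulated-like share (5.68 to 10.8) overlapped that of effector-like cells, 4.36% (2.96 to 6.17). Cycling-like cells of CD25WT had 7.87%. Central-like cells of CD25WT held more Fos UMIs in all, 122, at 6.98 CPM. Follicular regulatory-like cells had 98 UMIs and 16.7 CPM in CD25KO against 18 UMIs and 10.8 CPM in CD25WT, a ratio of 0.63 (-0.10 to 1.44). Of the 98 UMIs, 60 came from the 6 cells with 5 or more. The unnamed clusters had 28 UMIs and 5.00 CPM in CD25KO against 58 UMIs and 10.1 CPM in CD25WT, a ratio of -1.01 (-1.71 to -0.33). In central-like, effector-like and interferon response-like cells the interval held 0, with point values from -2.15 to -0.46.

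Fosb had a ratio below 0 in each of the 6 states, from small counts. Of the 7126 genes averaging 10 CPM or more, a minimum that Fosb did not reach, 4.7% did so too. The Fosb interval held 0 in follicular regulatory-like cells, at -0.97 (-1.93 to 0.05), and in the unnamed clusters, at -0.64 (-1.42 to 0.12). In effector-like cells 81 UMIs in CD25KO and 49 in CD25WT gave 7.18 and 13.6 CPM, a log2 ratio of -0.92 (-1.45 to -0.38). In recently stimulated-like cells 40 and 42 UMIs gave 8.33 CPM in CD25KO and 13.2 CPM in CD25WT, a ratio of -0.67 (-1.33 to -0.01). In central-like cells 1 UMI in CD25KO stood against 72 in CD25WT, with a ratio of -3.12 (-8.45 to -0.60), and in interferon response-like cells 3 stood against 11. Fosb was thus not higher in CD25KO in recently stimulated-like cells, where Junb and Fosl2 were.

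Among the 6 states compared, Fosl2 was highest in recently stimulated-like cells. It had 45 UMIs and 9.37 (6.83 to 12.5) CPM there in CD25KO, against 12 UMIs and 3.77 (1.95 to 6.59) CPM in CD25WT, a ratio of 1.31 (0.37 to 2.37). Effector-like cells followed with 49 and 11 UMIs, or 4.35 and 3.06 CPM, and an interval that held 0. No other compared state had over 10 Fosl2 UMIs in either library. In cycling-like cells, which were not compared, 1 UMI in CD25KO stood against 7 in CD25WT, or 0.274 and 4.96 CPM, and the CD25WT value was the highest of any state in that library.

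**Figure D3:**
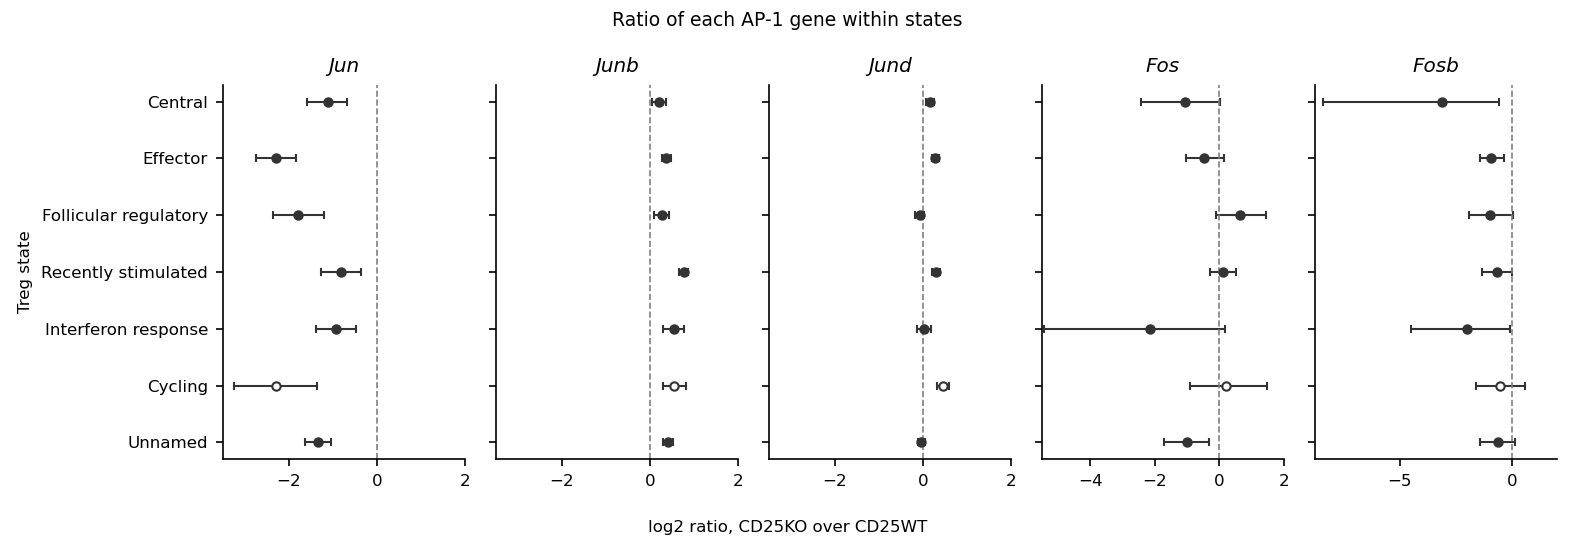
Log2 ratio of CD25KO over CD25WT for 5 AP-1 genes in each state, with 95% counting intervals and a dashed line at 0. The first 3 panels share an axis, and Fos and Fosb have wider ones. Open points mark cycling-like cells, which were not compared. Jun and Fosb lie below 0 and Junb above 0 in every state, while Jund and Fos lie on both sides.

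At the finer level of clusters, 13 clusters held at least 30 cells in each library. Jun had a ratio below 0 in 12 of them, with the interval below 0 in 10, and the range was -2.64 to 0.11. Effector-like cells were split unevenly, since the cluster led by Ccl5, Lilrb4a and Fgl2 held 1087 of 2259 in CD25KO and 111 of 688 in CD25WT, and the cluster led by Rora and Itgb1 held 784 in CD25KO and 476 in CD25WT. Within the Ccl5 cluster Jun had 3.64 CPM in CD25KO and 22.6 CPM in CD25WT, a ratio of -2.64, and within the Rora cluster 9.98 and 32.7 CPM, a ratio of -1.71. The lower Jun level thus held within both clusters. Another effector-like cluster, led by Ifitm1 and Ccr2, had 371 CD25KO and 32 CD25WT cells with 11 and 2 Jun UMIs. Its ratio was -0.90 (-3.10 to 2.31), so the interval held 0. The interval also held 0 in a central-like cluster led by Ly6c1 and Igfbp4, at -0.71 (-1.64 to 0.10).

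The exception in direction was an unnamed cluster led by Gbp2b, Prg4, Gm14085, Socs2 and Aqp3, with 126 CD25KO and 271 CD25WT cells. It had the highest Jun level of all 13 clusters in both libraries, 104 (79.7 to 134) CPM in CD25KO and 97.0 CPM in CD25WT. Its log2 ratio was 0.11 (-0.36 to 0.55), from 60 and 138 UMIs. A Jun UMI was seen in 26.2% of its CD25KO cells. Junb in the same cluster followed the rest, with 277 and 203 CPM and a ratio of 0.45 (0.16 to 0.73). Jund had 466 CPM in CD25KO and 410 CPM in CD25WT there, and its interval held 0. The remaining unnamed clusters had Jun ratios of -1.81 and -1.12, so the unnamed cells were not of one kind. Junb was above 0 in 12 of the 13 clusters and its interval was above 0 in 9. The exception was the effector-like cluster led by Ifitm1 and Ccr2, at -0.26 (-0.65 to 0.16), which held 32 CD25WT cells.

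**Figure D4:**
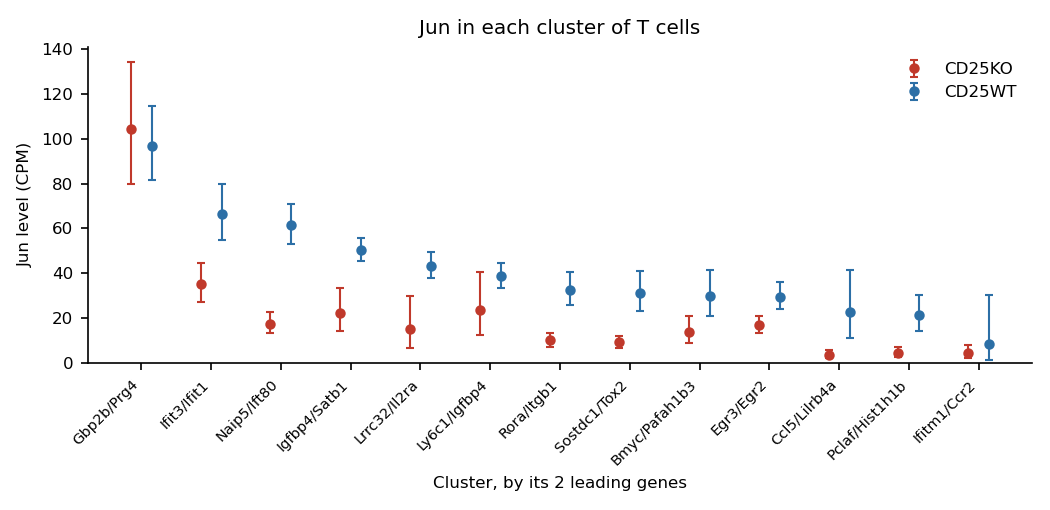
Jun in CPM in each of the 13 clusters with at least 30 cells per library, CD25KO left of CD25WT, with 95% counting intervals. Clusters are named by their first 2 leading genes and ordered by the CD25WT level. The libraries overlap at the left end, in the Gbp2b and Prg4 cluster at 104 and 97.0 CPM, and the CD25WT point is higher in the other 12. Their intervals also overlap in the Ly6c1 and Igfbp4 cluster and in the Ifitm1 and Ccr2 cluster.

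Jun and Junb also differed between cells with and without an Il2ra UMI. CD25WT cells with an Il2ra UMI had 52.6 (48.9 to 56.5) CPM of Jun and those with none had 38.9 (36.3 to 41.7) CPM, at median depths of 6109 and 4823 UMIs. In CD25KO the values were 16.5 (13.1 to 20.5) and 12.9 (11.7 to 14.3) CPM, and the intervals overlapped. Junb ran the other way in CD25WT, with 163 (156 to 170) CPM in cells with an Il2ra UMI and 190 (184 to 196) CPM in those with none, and in CD25KO it had 307 and 283 CPM. Set against CD25WT cells with no Il2ra UMI, all CD25KO cells had a log2 ratio of -1.54 for Jun and 0.59 for Junb. These were 3905 of the 6009 CD25WT cells, and at such depths a missing UMI does not mark low CD25. The comparison therefore does not match the gate on low CD25, and nothing on the gate is read from it.

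Members were also counted in the same cells after thinning. In CD25KO, 46.7% of cells with a Jun UMI and 38.4% of the others had a Junb UMI, and in CD25WT 33.0% and 27.3%. Fosb was seen in 7.78% of Fos-positive CD25KO cells, against 0.780% of the others, and in 8.42% against 1.30% in CD25WT. These rest on 7 CD25KO and 8 CD25WT cells with both, so they describe a handful of cells.

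The genes with profiles most like Jun and Junb were sought by Pearson's r over 12 profiles, the 6 states in each library, among 4834 genes averaging 20 CPM or more. The profiles share libraries and cells, and no p is given. For Jun these included Stambpl1 (0.84), Sesn1 (0.82), Igf2r (0.80), Hist1h2ap (0.78) and Wdr82 (0.77). For Junb they were Arf6 (0.97), Kdm2b (0.96), Ybx3 (0.95), Ythdf2 (0.95), Ier5 (0.94) and Bcap29 (0.94). Jun itself stood at -0.59 with Junb and -0.74 with Jund, and Junb at 0.89 with Fosl2. The profiles pool both libraries, so the difference between the libraries in Jun and Junb enters these values.

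Of the other AP-1 family and partner genes with basic leucine zippers, 16 of 26 listed were measured, 6 stood 1.5-fold or more higher in CD25KO and 1 as far lower, with a median log2 ratio of 0.32 against 0.21 for all genes. Batf, which pairs with Jun proteins at sites shared with IRF4, had 188 CPM in CD25KO and 61.2 CPM in CD25WT, a ratio of 1.61 (1.54 to 1.69). Maf, a regulator of interleukin-10 and of follicular T cells, had 644 and 206 CPM, a ratio of 1.65. Cebpb had 35.0 CPM in CD25KO and 2.01 CPM in CD25WT, a ratio of 4.12, and Nfil3 stood at 1.61. Mafg (1.11) and Crem (0.84) were the other 2 higher genes, and Bach2, which represses effector genes at AP-1 sites, was the lower one at -1.09, with 26.5 and 56.7 CPM. These 3 were named after their values were seen. Ddit3 was not measured because its symbol did not mark a single row, and Fosl1, which encodes Fra-1, had 1 UMI in CD25KO and 2 in CD25WT.

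RNA of the kinases upstream of Jun and Fos was also counted. It does not measure kinase activity, and the part of these pathways in the Jun values was not tested. Of 23 genes of the JNK and p38 pathway, 18 were measured, 4 stood 1.5-fold or more higher in CD25KO and 0 as far lower, with a median ratio of 0.20. The JNK genes Mapk8 and Mapk9 stood at 0.05 (-0.11 to 0.21) and 0.19 (0.03 to 0.34), named here as the kinases of Jun itself. The higher ones were the stress-induced Gadd45b (1.56), Map2k3 (1.06), which acts on p38, Map4k4 (0.89) and Map3k5 (0.63). Of 24 genes of the ERK and SRF pathway, which drives Fos, 18 were measured, 3 were that much higher and 0 that much lower, with a median of 0.14. Among the higher ones, Hras stood at 1.19 and the SRF partner Elk3 at 0.96. Of 7 measured MAP kinase phosphatases none passed 1.5-fold, and the median was 0.03. Of 7 measured NFAT and calcineurin genes, Nfatc1 at 0.87 was the 1 that did, and the median was 0.37.

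Among 18 measured immediate early genes outside AP-1, 3 stood 1.5-fold or more higher in CD25KO and 2 as far lower, with a median of 0.15. Egr1 had 73.3 CPM in CD25KO and 42.4 CPM in CD25WT, a ratio of 0.79, Egr2 stood at 1.25 and Egr3 at 1.02. Myc, a growth regulator, had 14.96 CPM in CD25KO and 39.9 CPM in CD25WT, a ratio of -1.42, and the activation marker Cd69, named after its value was seen, stood at -0.60. All 5 of these genes are in the marker list that named the recently stimulated-like cells, which thus held genes of both directions. With TMM factors every ratio in these lists is lower by 0.23, and the medians of the JNK and p38, ERK and SRF, phosphatase and immediate early lists then lie below 0.

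**Figure D5:**
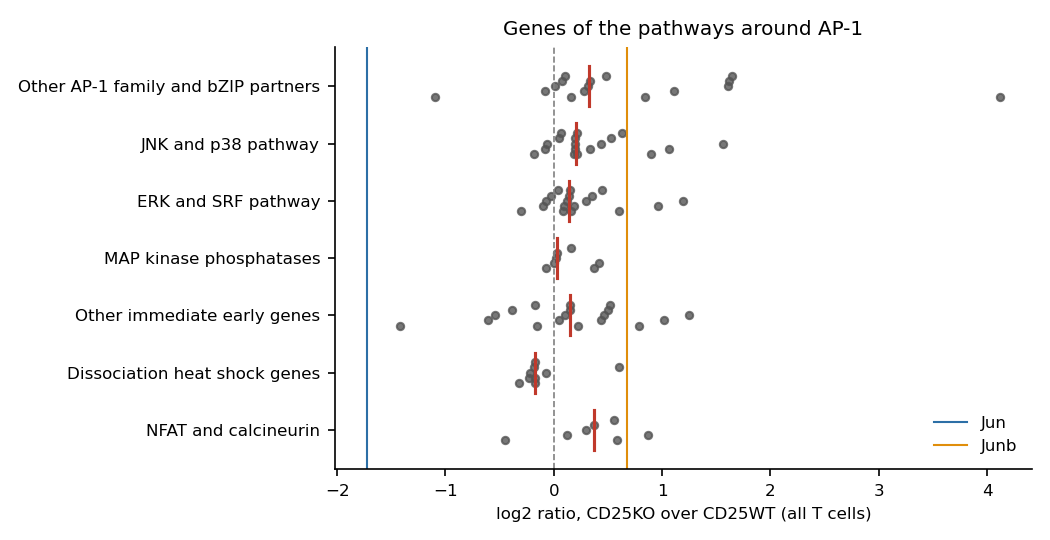
Log2 ratio of CD25KO over CD25WT in all T cells for the measured genes (grey points) of 7 lists around AP-1, with each list's median as a red bar and the ratios of Jun (-1.73) and Junb (0.68) as vertical lines. No listed gene lies as low as Jun, the lowest being Myc at -1.42. With TMM factors all points lie 0.23 lower.

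Cell handling can induce Jun, Fos and Junb, so heat shock genes of dissociation were set beside them. Of 9 measured, 1 (Hspa5, at 0.60) was past 1.5-fold and the median was -0.18. Hspa1a (1.22 CPM in CD25KO and 1.12 CPM in CD25WT) and Hspa1b (1.70 and 1.23 CPM) were under the minimum. Their ratios were 0.12 (-0.53 to 0.79) and 0.46 (-0.12 to 1.06), so both intervals held 0. The 12 listed genes summed to 5798 CPM in CD25KO and 6453 CPM in CD25WT. Hsp90ab1 (2058 and 2314 CPM) and Hspa8 (1445 and 1695 CPM) were the largest parts, so the sum says little on Hspa1a and Hspa1b. The sum was lower in CD25KO in each of the 6 states, by -0.16 to -0.27 on the log2 scale. The summed immediate early genes ran from -0.10 to 0.26 over the states. In central-like and follicular regulatory-like cells the heat shock difference (-0.23 and -0.24) was about as large as that of Junb (0.21 and 0.27) with the opposite sign. The part of these genes in the Jun and Junb values was not tested.

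Markers of other cell types were present at low levels among the T cells. The B cell list summed to 650 CPM in CD25KO and 278 CPM in CD25WT, with 4 of 4 measured genes at least 1.5-fold higher. The erythroid list summed to 114 and 203 CPM. For the myeloid list the sums were 145 and 107 CPM with S100a9 at 0, and Cst3 alone had 141 and 104 CPM of these. The CD8 list summed to 15.1 and 12.3 CPM, of which Cd8b1 had 12.7 and 10.6 CPM. Sums were 3.43 and 0.976 CPM for the natural killer list, with Klra8 at 0, and 0.568 and 0.0861 CPM for the platelet list. B-like cells themselves had a Jun UMI in 21.7% in CD25KO and 26.7% in CD25WT. Their part in the AP-1 values was not tested, and with the cells of other lineages put back the ratio was -1.67 for Jun and 0.68 for Junb.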

How the data were processed

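The authors deposited raw UMI counts for every gene and barcode. Per the file headers these come from Cell Ranger 6.0.0, and per the submitters' processing notes from build mm10. The annotation and strand setting behind them are not given in the sources used here. The members and gene lists were chosen with earlier results of these data known.

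Of the barcodes, 578 in CD25KO (7.68%) and 510 in CD25WT (7.70%) failed the cell filter. Clustering used log-transformed counts, 2000 highly variable genes, 30 principal components, 15 neighbours and leidenalg 0.10.2 at resolution 1. Its features held none of the AP-1 genes, Il2ra, antigen receptor segments, sex-linked marker genes, or genes of ribosomal proteins, mitochondria and haemoglobin. Clusters of at least 20 cells were named "-like" from marker lists, where the mean log2 fold of the markers was at least 0.25. The leading genes also had to hold at least as many markers of that class as of any other. This rule was set after seeing the data. No doublet caller was run, and 92 CD25KO and 101 CD25WT cells of B-like, myeloid-like and erythroid-like clusters were left out.

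UMIs were summed over T cells (35235371 in CD25KO and 34845972 in CD25WT) and scaled per 1000000. Sums have exact Poisson intervals, ratios exact conditional intervals and shares Clopper-Pearson intervals. The interval step was run on simulated Poisson sums for the 7126 genes, with 200 changed, and 95.6% of the intervals held the true ratio. The intervals assume Poisson counts, so this checks the computation only. The simulation held no clumping of UMIs in few cells, as seen for Fos, where the intervals can be too narrow. Up to 4 genes per list, those of largest absolute ratio, and the 6 genes most like Jun and Junb were named. Some genes that this rule takes are left unnamed and are not reported here. Scaling used TMM factors from edgeR 4.0.16 as an alternative; other alternatives were other scalings, cell filters, cell subsets and clusterings. Promoter sequences are from RefSeq.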

Additional observations from a re-analysis of the deposited data

Results flagged for a closer look

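Jund had ratios on both sides of 0 over the states. Its log2 ratio of CD25KO over CD25WT was 0.17 in central-like, 0.29 in effector-like and 0.30 in recently stimulated-like cells, each with its counting interval above 0. It was -0.072 in follicular regulatory-like cells and -0.031 in the unnamed clusters. Fos was at -1.01 in the unnamed clusters, 0.63 in follicular regulatory-like cells and 0.10 in recently stimulated-like cells. For Jund, the intervals of the first 3 states do not overlap those of the other 2. Less the median of all genes in each state, the central-like interval (-0.007 to 0.19) held 0. It then overlapped those of follicular regulatory-like cells (-0.16 to 0.04) and the unnamed clusters (-0.16 to 0.004). Central-like clusters also differed in Jund, at -0.22 (-0.44 to -0.01) where Lrrc32 and Il2ra led. The cluster led by Ly6c1 and Igfbp4 stood at 0.37 (0.19 to 0.54), and another at 0.25. For Fos, the interval of the unnamed clusters does not overlap those of the other 2 states. These Fos intervals are too narrow to set states apart, because few cells held many of the UMIs. In CD25KO, 6 follicular regulatory-like cells carried 60 of 98 UMIs, and 5 recently stimulated-like cells carried 74 of 139. The share of cells with a Fos UMI was lower in CD25KO in each of these states. It was 2.95% against 4.24% in follicular regulatory-like, 6.80% against 7.97% in recently stimulated-like and 1.03% against 4.11% in unnamed cells. With 1 library per group the differences between states were not tested.

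Cells of other lineages enter none of the comparisons, and for Jun, Fos and Atf3 some of them had larger shares with a UMI than the T cells of the same library. The B-like shares of Junb and Jund were lower than those of T cells. In CD25KO, 21.7% (10.9 to 36.4) of 46 B-like cells had a Jun UMI, against 4.78% of T cells. A Fos UMI was seen in 13.0% (4.94 to 26.3) of these B-like cells and in 14.3% (4.03 to 32.7) of 28 myeloid-like cells, against 2.78% of T cells. Atf3 was seen in 4.35% of 46 CD25KO and 6.67% of 45 CD25WT B-like cells. The shares rest on 2 to 10 cells each.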

How the results depend on the processing

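No paired analysis was possible because each group was 1 library. Jun stayed below 0, and Junb, Jund and Fosl2 stayed above 0, under each of the 16 alternatives run for them. With median-of-ratios factors, Jun was -1.94, Junb 0.47 and Jund 0.15. With TMM factors, Jun was -1.96, Junb 0.44, Jund 0.13 and Fos -0.062. Without ribosomal protein and mitochondrial genes in the total, Jun was -1.92, Junb 0.48 and Jund 0.16. With equal weight per cell, Jund was 0.31 and Fos -0.044. Thinned to 2000 UMIs, Jun was -1.55, Jund 0.29, Fosb -0.67 and Jun minus Junb -2.21. With no cell filter, Jun was -1.47 and Jun minus Junb -2.14. With the stricter filter, Jun was -1.58, Jund 0.42 and Fosb 0.13, which turned its direction; the cause was not tested. Against CD25WT cells with no Il2ra UMI, Jun was -1.54, Junb 0.59, Jund 0.31 and Jun minus Junb -2.13. Among cells with a Foxp3 UMI, Jun was -1.92, Junb 0.78, Jund 0.53, Fosb -1.02 and Jun minus Junb -2.71. With CD25WT state shares, Jun was -1.22, Junb 0.38, Jund 0.15, Fos -0.50, Fosb -1.22, Fosl2 0.46 and Jun minus Junb -1.60. With CD25WT cluster shares, added after seeing the data, these were -1.03, 0.33, 0.13, -0.45, -1.06, 0.44 and -1.36. Junb was 0.73 without cycling-like and 0.58 without recently stimulated-like cells. Leaving out the 5% of cells with most UMIs, or the shared barcodes, both added after seeing the data, moved no member past its counting interval. The interval was below 0 for Jun in 6 of 6 states, and in 5 or 6 under 4 other ways of making states. For Junb it was above 0 in 6, and in 4 to 6. Genes at least 1.5-fold apart were 858, of which 87.6% were higher in CD25KO, and 649 with TMM factors, of which 61.5% were higher. At these depths Atf3 is not measured, and Fosb and Fosl2 rest on few UMIs per state.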

Other observations

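The make-up of the Jun family also varied with state. Junb took 44.2% (42.9 to 45.5) of Jun family UMIs in CD25KO and 35.7% (33.9 to 37.5) in CD25WT recently stimulated-like cells, its highest share in both libraries. In central-like cells it took 25.9% in CD25KO and 24.2% in CD25WT, with overlapping intervals. Jund took 76.5% and 74.8% in cycling-like cells, the highest of any state. Jun reached 5.98% (4.67 to 7.52) in CD25KO and 11.996% (10.0 to 14.2) in CD25WT interferon response-like cells, and was at 0.630% and 3.70% in effector-like cells.

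The 825 CD25KO cells with an Il2ra UMI had 19.3 (15.6 to 23.6) CPM of Fos and 5.43 (3.58 to 7.90) CPM of Fosl2, and the CD25KO cells with none had 9.55 (8.48 to 10.7) and 2.81 (2.24 to 3.47) CPM. In CD25WT, cells with an Il2ra UMI had 11.1 CPM of Fos and 0.916 CPM of Fosl2, and those with none had 8.76 and 1.69 CPM. The cells with a UMI were also deeper, with medians of 4561 and 4116 UMIs in CD25KO, and the part of depth or state in these values was not tested.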
